A study of Mus musculus with 8 samples.

Results

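The 8 genes described here encode the scaffold and ankle link proteins of the hair bundle that are tied to Usher syndrome and related deafness. They are Ush1c, Ush1g, Adgrv1, Whrn, Pdzd7, Clrn1, Clrn2 and Gipc3, chosen by name as 8 of the 22180 genes measured. Each had 1 array feature with a single gene symbol, so no choice between features was needed. RNA came from the whole encapsulated cochlea of mice at postnatal day 16, with both cochleae of an animal pooled as 1 sample. A group of 4 animals carried a knockout of the microRNA genes Mir183 and Mir96, and 4 animals were controls, called wild type in the series design. The sources used here do not give the strain, the sex or the structure of the allele. The arrays were Affymetrix Mouse Gene 2.0 ST arrays, and all values are log2 expression values.

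Hair cells detect sound with a bundle of stereocilia, actin-filled protrusions joined by extracellular links. Tip links, made of cadherin 23 and protocadherin 15, pull on the transduction channel, and their upper end is anchored by a scaffold of harmonin, SANS and myosin VIIa. Ankle links join the stereocilia near their base while the bundle matures, and rest on a separate complex of ADGRV1, usherin, whirlin and PDZD7. Defects of these proteins cause Usher syndrome, which combines deafness with retinal degeneration, or deafness alone.

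The deleted microRNAs belong to a cluster expressed in sensory cells. Their mature 5p arms, taken from RefSeq on GRCm38.p6, are shown because they define the contrast; capitals mark the seed, bases 2 to 8.
mmu-miR-183-5p: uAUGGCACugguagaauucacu
mmu-miR-96-5p: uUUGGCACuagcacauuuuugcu
The seeds share a run of 6 bases, UGGCAC. Target sites of these seeds in the 8 transcripts were not analysed here. The Mir96 feature reached at most 4.31 on the knockout arrays and at least 5.26 on the control arrays, so on that feature each array matched its label. The Mir183 feature overlapped, at 1.82 to 2.40 in knockout and 2.23 to 2.84 in control arrays (limma adjusted p = 0.398). With a mean level at percentile 3.51 of the features it did not separate the groups.

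None of the 8 genes passed the test between genotypes. Of 23521 features tested, 3 passed at a Benjamini-Hochberg adjusted p under 0.05 in limma (0.0128%), and 0 of these were members. At an unadjusted p under 0.05 there were 2 members, Ush1g and Gipc3, both higher in knockout cochlea. That is 2 of 8, where 14.3% of all features reached that p in either direction and 7.04% did so as higher. The count was 0 without knockout replicate 3, control replicate 2 or control replicate 4, 1 when any other array but knockout replicate 2 was left out, and 0 with median-centred arrays. The differences, knockout minus control, ran from -0.09 for Ush1c to 0.29 for Gipc3, with a median of 0.06 against 0.01 over all features. That median was 0.14 without control replicate 3, 0.036 without control replicate 2 and 0.039 without knockout replicate 4. After cyclic loess normalization it was 0.011, against -0.03 over all features. With median-centred arrays it was -0.019, against -0.069 over all features. Standard errors (SE) were 0.11 to 0.16. The 95% intervals, taken gene by gene, reached at most 1.49-fold higher (Gipc3) and 1.28-fold lower (Clrn2) in the knockout.

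**Figure D1:**
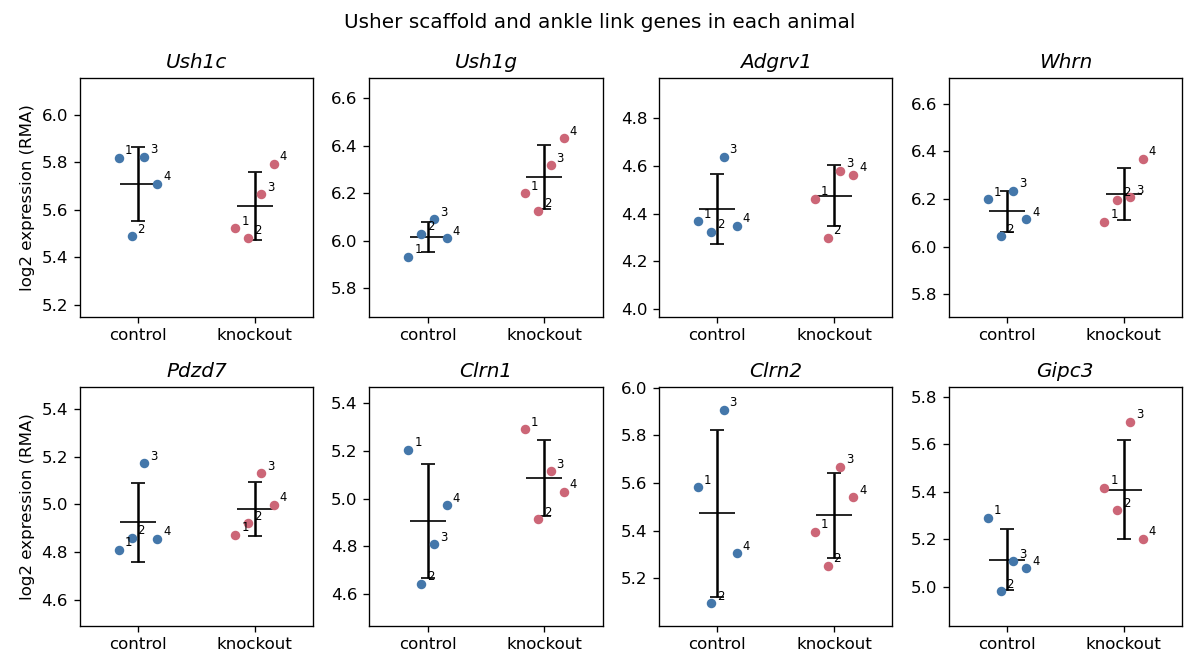
Log2 expression (vertical axis, 1 log2 unit in every panel) of the 8 genes in 4 control and 4 knockout animals; points are animals with their replicate number, and the bar and whiskers are the mean and SD. Ush1g is the gene whose groups do not overlap, and Clrn2 has the widest spread, 5.10 to 5.91 among controls.

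Of the scaffolds of the tip link anchor, Ush1g read above every control array on every knockout array. Ush1g encodes SANS, an ankyrin repeat protein that binds harmonin and myosin VIIa. Its feature read 6.20, 6.13, 6.32 and 6.43 in knockout replicates 1 to 4 and 5.93, 6.03, 6.09 and 6.01 in control replicates 1 to 4. The lowest knockout value, 6.13, lay just above the highest control value, 6.09, so the groups did not overlap. Groups did not overlap with the knockout higher at 3.30% of all features. The means were 6.27 ± 0.13 in knockout and 6.02 ± 0.06 in control cochlea (SD, n = 4). The difference was 0.25 (SE 0.11), which is 1.19-fold, with a 95% interval of 0.02 to 0.48 (limma unadjusted p = 0.0332, adjusted p = 0.322). It was positive in all 19 alternatives run, with an unadjusted p under 0.05 in 12 of them. Those that changed only the variance model, the block or the features entered give the same estimate, so its sign could not turn there. Without knockout replicate 4 the difference was 0.20, and with the signal range of each array as a covariate 0.14 (adjusted p = 0.961).

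Ush1c, by contrast, had the lowest difference of the 8. Ush1c encodes harmonin, the PDZ-domain scaffold that binds cadherin 23 and SANS. The knockout arrays read 5.52, 5.48, 5.66 and 5.79 and the control arrays 5.82, 5.49, 5.82 and 5.71, replicates 1 to 4 in each. The ranges overlapped almost fully, and the lowest arrays were knockout replicates 1 and 2 and control replicate 2. The difference was -0.09 (SE 0.12, 95% interval -0.35 to 0.16; limma adjusted p = 0.713), so a fall of up to 1.28-fold lies within the interval. It was -0.049 without knockout replicate 2, -0.17 without control replicate 2 and -0.27 with signal range as a covariate. Harmonin and SANS thus carried differences of opposite sign, but the difference between the 2 genes was not tested.

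The ankle link genes Adgrv1, Whrn and Pdzd7 had small positive differences that did not pass. Adgrv1 encodes the very large adhesion receptor that forms the links. Its values were 4.46, 4.30, 4.58 and 4.56 in knockout replicates 1 to 4 and 4.37, 4.32, 4.64 and 4.35 in control replicates 1 to 4. The highest and the second lowest array were controls, and the difference was 0.06 (SE 0.12, 95% interval -0.21 to 0.32; limma adjusted p = 0.837).

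Pdzd7, a PDZ-domain protein that organises the ankle link complex, read 4.87, 4.92, 5.13 and 4.998 in knockout and 4.81, 4.86, 5.17 and 4.86 in control replicates 1 to 4. As in Adgrv1, control replicate 3 was the highest of all 8 arrays and knockout replicate 3 the second highest. The difference was 0.06 (SE 0.12, 95% interval -0.21 to 0.32; limma adjusted p = 0.839). Control replicate 3 stood apart from the other controls in both genes. Without it the differences were 0.13 for Adgrv1 and 0.14 for Pdzd7. After cyclic loess normalization both turned negative, at -0.08 for Adgrv1 and -0.05 for Pdzd7.

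Whrn encodes whirlin, which sits at the ankle links and, with myosin XVa, at the stereocilia tips. It read 6.11, 6.20, 6.21 and 6.37 in knockout and 6.20, 6.04, 6.23 and 6.12 in control replicates 1 to 4. Its within-group SD of 0.10, the smallest of the 8 genes, ranked at percentile 7.11 among features. The difference was 0.07 (SE 0.11, 95% interval -0.15 to 0.30; limma adjusted p = 0.753). Without knockout replicate 4 it was 0.022, and without knockout replicate 1 it was 0.11. An increase above 1.23-fold or a fall beyond 1.11-fold lies outside that interval.

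The clarin genes were the most variable of the 8 between animals of a group, by within-group SD. Clrn1 and Clrn2 encode small multi-pass membrane proteins needed for a stable bundle, and CLRN1 is the gene of a further type of Usher syndrome. Clrn1 read 5.29, 4.91, 5.11 and 5.03 in knockout and 5.20, 4.64, 4.81 and 4.97 in control replicates 1 to 4. The knockout mean was 5.09 ± 0.16 and the control mean 4.91 ± 0.24 (SD, n = 4), with overlapping groups and a difference of 0.18 (SE 0.14; limma adjusted p = 0.538). Without control replicate 2, its lowest array, the difference was 0.09, and without control replicate 1 it was 0.28.

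Clrn2 had the largest spread of the 8 genes. It read 5.39, 5.25, 5.67 and 5.54 in knockout and 5.58, 5.10, 5.91 and 5.30 in control replicates 1 to 4. The controls alone spanned 1.76-fold, with the highest and the lowest of all 8 arrays among them. Its within-group SD of 0.28 ranked at percentile 84.8 among features. The group means were 5.46 ± 0.18 in knockout and 5.47 ± 0.35 in control cochlea (SD, n = 4), a difference of -0.0081 (SE 0.16, 95% interval -0.36 to 0.35; limma adjusted p = 0.984). The sign turned in 5 of 19 alternatives, some of which give the main estimate unchanged, and without control replicate 3 the difference was 0.14.

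Gipc3 had the largest difference. It encodes a PDZ protein of hair cells and spiral ganglion neurons whose family binds myosin VI, and it is a deafness gene outside the Usher group. The feature read 5.42, 5.32, 5.69 and 5.20 in knockout and 5.29, 4.98, 5.11 and 5.08 in control replicates 1 to 4. The groups overlapped through knockout replicate 4, which lay below control replicate 1, while the other knockout arrays were above every control. The means were 5.41 ± 0.21 and 5.12 ± 0.13 (SD, n = 4), and the difference of 0.29 (SE 0.13, 95% interval 0.02 to 0.57) is 1.23-fold (limma unadjusted p = 0.0394, adjusted p = 0.334). The unadjusted p was under 0.05 in 9 of 19 alternatives. Leaving out knockout replicate 3 gave 0.20, and leaving out control replicate 2 gave 0.25.

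**Figure D2:**
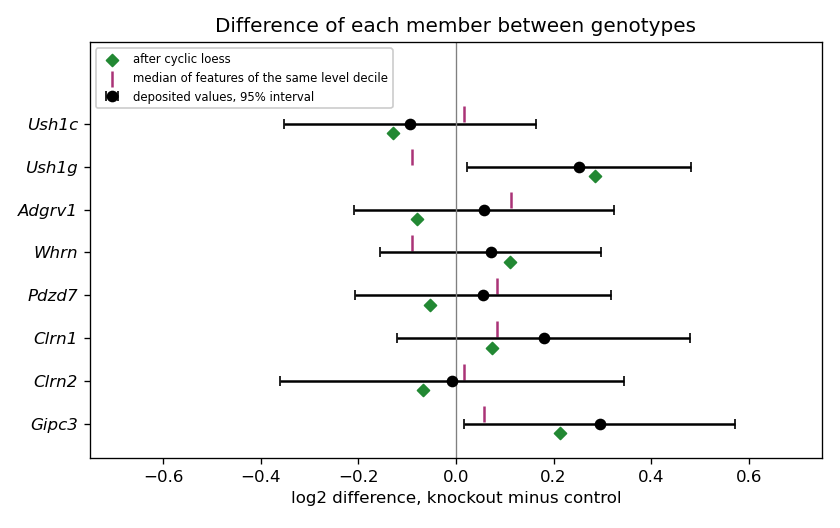
Log2 difference, knockout minus control (horizontal axis), for each gene; black points and whiskers are the limma estimate and its 95% interval, green diamonds the estimate after cyclic loess, and purple ticks the median of all features in the same decile by mean level. The intervals of Ush1g and Gipc3 lie above 0, and those of the other 6 genes include it.

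Over the whole array the difference between genotypes followed the level of a feature, which bears on the sign of each gene. The median difference fell from 0.13 in the lowest of 10 deciles of features by mean level to -0.21 in the highest. Of the 8 genes, 6 had a positive difference, against 52.4% of all features. Set against the median of its own decile, 4 of the 8 were higher: Ush1g, Gipc3, Whrn and Clrn1. Ush1g lay in a decile whose median was -0.09 and stood 0.34 above it. Gipc3 lay in a decile with a median of 0.06 and stood 0.24 above it. Adgrv1 and Pdzd7 lay 0.06 and 0.03 below the medians of theirs, 0.11 and 0.08. Cyclic loess, which reduced this trend to a median of 0.02 in the lowest decile and -0.07 in the highest, left 4 of 8 genes positive, against 42.7% of all features. There Ush1g read 0.29 (limma unadjusted p = 0.0155, adjusted p = 0.421) and was the 1 member at an unadjusted p under 0.05, which 10.1% of all features reached. Gipc3 read 0.21 (unadjusted p = 0.103, adjusted p = 0.560).

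**Figure D3:**
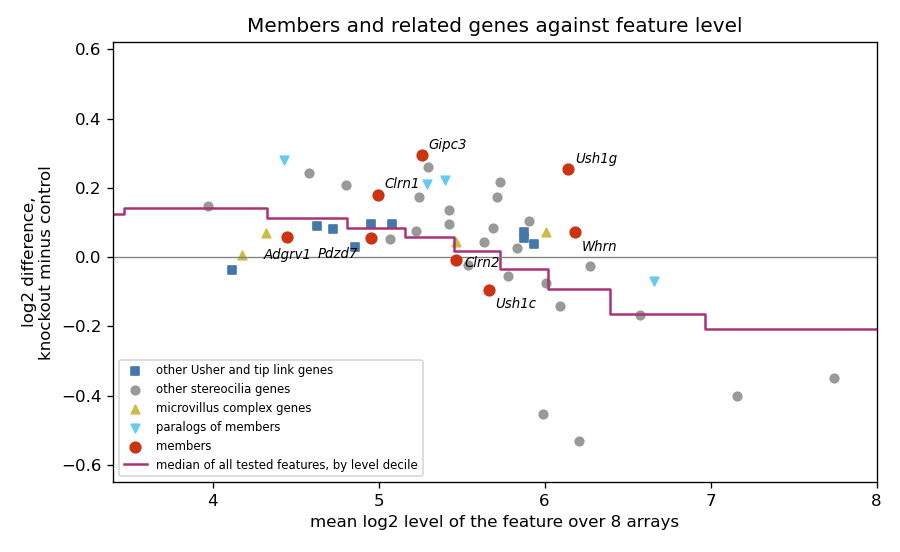
Log2 difference, knockout minus control (vertical axis), against the mean log2 level of each feature over 8 arrays (horizontal axis) for the 8 members and for related gene lists; the stepped line is the median of all tested features by decile of level. Ush1g lies 0.34 above the line, and Adgrv1, Pdzd7 and Clrn2 lie within 0.06 of it.

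The values also varied between animals of the same group. Between the groups, 21 of 32 control values over the 8 genes were below the mean of their gene, as were 11 of 32 knockout values. These counts partly restate the sign of the group differences, and the 8 values of an array are not independent. Of all features, 49.0% to 53.3% were below their mean on a control array and 47.2% to 51.3% on a knockout array. Control replicate 3 held the highest control value in 6 of 8 genes, against 31.9% of all features. Control replicate 2 held the lowest in 6 of 8, against 22.9%. All 8 genes were below their own mean in control replicate 2, as were 51.0% of all features, and 0 of 8 were below it in knockout replicate 3, against 49.7%. In control replicate 4 the count was 7 of 8 (53.3% of all features), and in knockout replicate 4 it was 1 of 8 (47.2%). Among knockout animals, replicate 2 was lowest in 5 of 8 genes (31.8% of all features), and replicates 3 and 4 were highest in 4 and 3 (22.6% and 25.9%). These arrays also differed in other measures. A skeletal muscle list of 12 genes averaged 8.48 in control replicate 2, against 6.53 to 6.95 in the other controls. It averaged 6.71 in knockout replicate 2, the highest of the knockout arrays (5.53 to 6.71). Control replicate 4, with 7 of 8 members below their mean, averaged only 6.56. Knockout replicate 1 had the lowest muscle mean, 5.53, and 4 of 8 members below their mean (48.2% of all features). The signal range, the SD of the log2 values of an array, was 1.41 in control replicate 3, the lowest control value. It was 1.52 and 1.56 in control replicates 2 and 4, and 1.37 to 1.44 in knockout arrays. The part of muscle RNA and of signal range in the pattern was not tested.

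**Figure D4:**
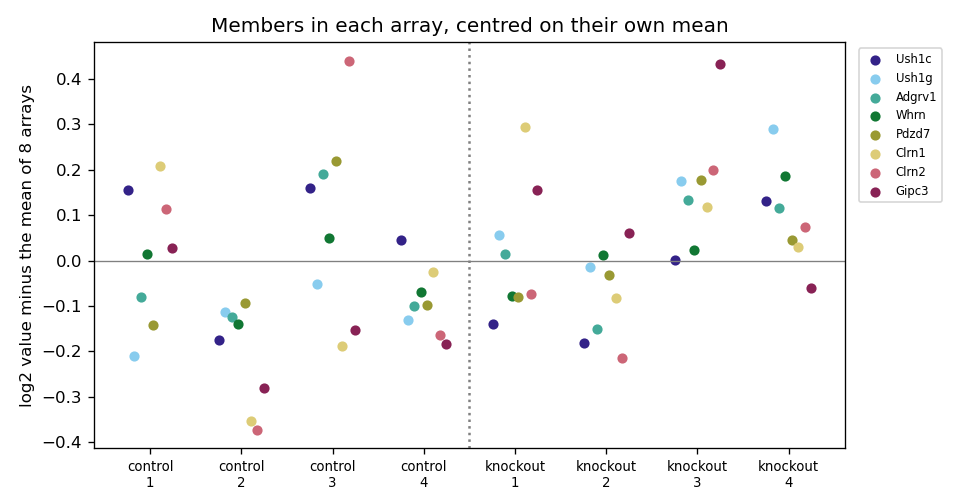
Log2 value minus the mean of the gene over 8 arrays (vertical axis) for each array (horizontal axis); every point is 1 gene, coloured by gene. In control replicate 2 all 8 points are below 0, and in control replicate 3 the points of 6 genes are the highest of the control arrays for their gene.

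Genes whose profile over the 8 arrays was most like that of each member were sought among 41 other members and bundle genes, by the mean absolute distance between centred log2 values. Adgrv1 and Pdzd7 were each other's nearest gene, at a distance of 0.057, where their own mean deviations were 0.11 each. Ush1g was nearest to Myo3b, a myosin of the stereocilia tip (0.072). Myo3b read 0.24 higher in knockout cochlea (limma adjusted p = 0.366) and 0.11 higher after cyclic loess, where Ush1g read 0.29. Gipc3 was nearest to Grxcr2, a bundle protein at the base of stereocilia (0.089), and Clrn1 to Tmie, a subunit of the transduction channel complex (0.089). Whrn was nearest to Cdh23 (0.062), but its own mean deviation was 0.072, so any flat feature is near it. Ush1c and Clrn2 had Ankrd24, a bundle rootlet protein, as the nearest gene, at 0.089 and 0.10. All these distances come from the same 8 arrays and share their normalization.

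Upstream sequence is shown for the pair with the closest profiles, Adgrv1 and Pdzd7, and for Gipc3, which had the largest difference. Each line gives the 250 bases before the RefSeq start on GRCm38.p6, read 5′ to 3′ on the minus strand. Capitals mark E-boxes (CANNTG), GC boxes (GGGCGG) and TATA boxes (TATAAA), searched on both strands.
Adgrv1, chr13:81633145-81633394: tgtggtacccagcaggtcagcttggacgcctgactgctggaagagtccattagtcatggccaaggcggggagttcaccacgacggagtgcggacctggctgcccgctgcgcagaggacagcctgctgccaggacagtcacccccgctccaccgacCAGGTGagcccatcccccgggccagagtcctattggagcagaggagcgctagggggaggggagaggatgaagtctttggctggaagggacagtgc
Pdzd7, chr19:45045773-45046022: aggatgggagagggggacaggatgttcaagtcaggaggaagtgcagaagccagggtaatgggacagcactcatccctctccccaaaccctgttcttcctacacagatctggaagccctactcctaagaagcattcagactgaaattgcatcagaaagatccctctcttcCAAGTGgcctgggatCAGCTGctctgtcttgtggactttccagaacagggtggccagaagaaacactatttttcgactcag
Gipc3, chr10:81343360-81343609: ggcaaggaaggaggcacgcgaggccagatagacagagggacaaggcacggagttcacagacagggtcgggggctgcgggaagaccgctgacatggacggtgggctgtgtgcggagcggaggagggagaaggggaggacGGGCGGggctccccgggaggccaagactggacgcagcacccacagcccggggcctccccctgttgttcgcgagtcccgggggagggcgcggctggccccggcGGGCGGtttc
Adgrv1 held 1 E-box and Pdzd7 held 2, of which 1 was CAGCTG, while Gipc3 held none and 2 GC boxes. The windows also differed in base composition: Gipc3 had 71.6% G and C with 22 CpG, Adgrv1 64.4% with 11 and Pdzd7 50.8% with 1, where the median of all windows was 52.4% and 6. An E-box occurred in 4 of the 6 members with an entry and in 66.2% of all 32851 windows, and a GC box in 3 of 6 and in 32.7%. A TATA box occurred in 0 of 6 and in 12.4% of all windows. A match is a match of letters, and the start used in the cochlea was not measured.

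Other genes of the Usher and tip link group did not pass either. Of 12 listed, 9 were measured, and the other 3 were not analysed here. Of the 9, 0 were called after adjustment (0.0128% of all features) and 0 were at an unadjusted p under 0.05 (14.3%). Their differences lay between -0.04 and 0.10, with 8 of 9 above 0 (52.4% of all features), and 3 of 9 after cyclic loess (42.7%). Pcdh15, the lower strand of the tip link, read 0.10 (limma adjusted p = 0.682), with a second, dimmer feature at 0.16. Cdh23, the upper strand, read 0.08 (adjusted p = 0.737) and Cib3, a calcium-binding subunit of the channel complex, 0.10 (adjusted p = 0.730). Myo7a, the motor that binds harmonin and SANS, read 0.04 (adjusted p = 0.874).

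Among 25 measured genes of 27 other stereocilia genes, 0 passed after adjustment (0.0128% of all features). At an unadjusted p under 0.05, 1 was higher and 4 were lower (7.04% and 7.25% of all features). After cyclic loess the count was 2 in either direction (10.1%). The lower ones included Myo6, the myosin that GIPC proteins bind, at -0.53 (limma adjusted p = 0.301), Ptprq, a phosphatase receptor of the shaft connectors, at -0.45 (adjusted p = 0.305), and Rdx, the actin linker radixin, at -0.35 (adjusted p = 0.305). Rdx lay in the highest decile, whose median was -0.21, and read -0.19 after cyclic loess. Thus Gipc3 and Myo6 carried differences of opposite sign, neither of which passed.

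Hair cell content was read from 15 markers chosen by name, such as Pou4f3, Gfi1 and Otof. Myo7a, Tmc1, Lhfpl5 and Strc among them also belong to the Usher or stereocilia lists above. Their mean level was 5.35 ± 0.05 in knockout and 5.38 ± 0.04 in control cochlea (SD, n = 4). Of the 15, 0 were called (0.0128% of all features) and 0 were at an unadjusted p under 0.05 (14.3%). The median difference of the 15 was 0.02, with 8 of 15 above 0 (52.4% of all features) and 3 of 15 above the median of their decile. After cyclic loess the median was -0.09, with 3 of 15 above 0 (42.7% of all features). Pou4f3 was at 5.52 to 5.59 in knockout and 5.61 to 5.69 in control arrays, with no overlap (2.65% of all features with the knockout lower) and a difference of -0.10 (limma adjusted p = 0.647). The mean level ranged from 5.30 to 5.42 in knockout and from 5.32 to 5.41 in control arrays. Levels of 7 of 15 lay above the median feature, and no detection call was at hand to tell dim features from background. In whole cochlea, a change in hair cell number and a change in RNA per hair cell cannot be told apart. Other lists lay further apart, though Snap25 was the only gene called among them. Neuronal markers were at 5.80 ± 0.14 against 6.20 ± 0.20, supporting cell markers at 5.97 ± 0.18 against 6.14 ± 0.10, muscle at 6.27 ± 0.52 against 7.13 ± 0.92 and marrow at 8.41 ± 0.17 against 8.64 ± 0.24 (knockout and control, SD, n = 4). The neuronal arrays ranged from 5.59 to 5.93 in knockout and from 5.98 to 6.40 in control animals. The 12 neuronal markers were uneven, with 10 differences below 0 and 2 above (52.4% of all features above). Snap25, Calb1 and Nefl read -1.09, -1.08 and -0.91, whereas Syt1 and Isl1 read -0.03 and -0.01. Prph and Gata3 read 0.12 and 0.19. The list mean is thus not a measure of all neuronal genes. Gipc3 is known in neurons too, and the part of neuronal RNA in its values was not tested.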

How the data were processed

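The deposited log2 expression values were produced by the authors in Affymetrix Expression Console by gene-level RMA, as the labels and the submitters' processing notes state. RMA corrects background, quantile-normalizes the arrays and summarises probes by median polish. The deposited values still differed in median over all features, at 5.20 to 5.28 in knockout and 5.10 to 5.26 in control arrays. The sources used here do not give the software version, the genome build or which arrays were normalized jointly. The number of arrays limits the precision. Of 41345 features, 23521 had exactly 1 symbol and were tested, 1814 had several and 16010 none.

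Knockout and control were compared in limma 3.58.1 under R 4.3.3, with an intensity trend, genotype as the only term and Benjamini-Hochberg adjustment over all 23521 features. A simulation at these means and spreads planted 200 changed features, 50 per size. The share called was 100% at a size of 1, 56% at 0.6 and 0% at 0.3, beside 12 false calls. The measured data gave only 3 calls, so the rates at 1 and 0.6 need not hold there. Calb2 (-1.60), Mir96 (-1.48) and Snap25 (-1.09) were called. Olfr99 at 1.33 (limma adjusted p = 0.0511), Zfp972 at 1.08 (adjusted p = 0.0839) and Calb1 at -1.08 (adjusted p = 0.226) were not. Differences of the size seen in the 8 genes would thus rarely be called. Members, lists and naming rule (all members, then the 3 smallest p of each related list, the main tip link genes and the nearest profiles) were chosen with earlier results of these data known. The labels do not state litters, so p-values measure the spread between these animals.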

Additional observations from a re-analysis of the deposited data

Results flagged for a closer look

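In 2 of 16 groups of 4 arrays, 1 array lay far from the other 3. About 1 in 20 groups of independent normal values would do so, and the share over all features was not computed. The array was control replicate 3 each time. It read 4.64 for Adgrv1, with the other controls at 4.32 to 4.37, and 5.17 for Pdzd7, with the other controls at 4.81 to 4.86. These genes had the closest profiles, so the 2 groups are not independent. Control replicate 3 held the highest control value in 31.9% of all features. Both genes belong to the ankle link complex, but they are also the dimmest of the members, at level percentiles 22.2 and 33.9. Ankrd24, a bundle rootlet protein, was the second nearest profile to each. The signal range of that array, 1.41, lay inside the knockout range of 1.37 to 1.44, and its part in these values was not tested.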

How the results depend on the processing

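No member passed the adjusted threshold in any of the 19 alternatives, and the smallest adjusted p of any member over them was 0.160 (Ush1g with array weights). The count of 2 members at an unadjusted p under 0.05 was 1 with all features tested, after repeated quantile normalization, after cyclic loess and with the signal range covariate, and 0 with median-centred arrays. Leaving out 1 array gave 0 to 2: it was 0 without knockout replicate 3, control replicate 2 or control replicate 4, and 1 when knockout replicate 1, knockout replicate 4, control replicate 1 or control replicate 3 was left out. The member at that p under the signal range covariate was Clrn2, at -0.46 (unadjusted p = 0.0174, adjusted p = 0.787), and the median of the members was then -0.091. Signal range differed between the groups (1.40 ± 0.03 in knockout, 1.49 ± 0.06 in control arrays), so it overlaps with genotype. Adgrv1 turned to -0.026 with median-centred arrays, -0.074 after quantile normalization, -0.079 after cyclic loess and -0.18 with signal range. Pdzd7 turned to -0.027, -0.045, -0.053 and -0.14 in the same settings, and Whrn to -0.011 with median-centred arrays and -0.042 with signal range. Clrn2 turned to 0.063 with array weights and ranged from -0.13 to 0.14 over the arrays left out. Ush1g, Gipc3, Clrn1 and Ush1c kept their sign in every alternative they entered. Alternatives that changed only the variance model, the block or the features entered could not turn a sign, because they give the same estimate. With a mean of at least 5 required, 5 members remained, and Adgrv1, Pdzd7 and Clrn1 dropped out. With the replicate number as a block the counts were 0 and 2, and the median was 0.06. The numbers were not taken as pairs, because no label says that a number marks a pair. Same-numbered arrays correlated in their deviations at -0.29 to 0.21. The dim signal of several members limits what a small difference can show.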

Other observations

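Close relatives of the members that act mainly outside the ear were measured on the same arrays. Harmonin also builds the adhesion complex of gut and kidney microvilli, and of 4 genes of that complex 0 were called (0.0128% of all features). Calml4, its light chain, read 0.07 (limma adjusted p = 0.780), Cdhr5, a protocadherin of the complex, 0.07 (adjusted p = 0.815) and Myo7b, its motor, 0.04 (adjusted p = 0.896). Of 4 paralogs of members 0 were called (0.0128% of all features), with a median difference of 0.22, and 0.14 after cyclic loess. The clarin gene Clrn3 read 0.22 (adjusted p = 0.427), Gipc2 0.21 (adjusted p = 0.440) and the SANS relative Anks4b 0.28 (adjusted p = 0.460), while Gipc1 read -0.07 (adjusted p = 0.736). All 4 paralogs lay above the median of their decile of features by level, as did 4 of the 8 members and, by construction, 11760 of all 23521 features.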
